A study of Caenorhabditis elegans with 2 samples.

Results

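The ceh and hlh genes of Caenorhabditis elegans encode transcription factors of the homeobox and basic helix-loop-helix (bHLH) families, and they were examined here as possible places of TBX-2 on the genome. Members were the protein-coding genes whose symbol begins with ceh- or hlh- and a digit in the Ensembl annotation of assembly WBcel235, without ceh-2, ceh-13, ceh-20, ceh-22, ceh-24, ceh-28, ceh-34, ceh-45 and hlh-6. There were 79 members among 19985 protein-coding genes, 55 of the ceh series and 24 of the hlh series. The rule used symbols alone and no measured value, and the classes used below come from textbook knowledge of these families.

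The measurement was chromatin immunoprecipitation with sequencing (ChIP-seq) in whole L3 hermaphrodites of strain OP159, collected 48 h after release from L1 starvation. This strain has the genotype unc-119(ed3) III; wgIs159, where wgIs159 is a transgene for TBX-2 with GFP and FLAG at its C-terminus, and the precipitation used an antibody against GFP. All samples formed 1 group of 2 biological replicates that shared genotype and stage, so there was no comparison of conditions and no test was made. A control experiment that the labels mention as possible was not used here. Signal from all cells of the animal was pooled, so binding in a few cells can be missed.

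Homeodomain proteins bind short AT-rich DNA and set the identity of neurons, muscles and other cell types, and in the worm many of them act as terminal selectors of single neuron classes. Proteins of the bHLH family bind E-boxes as dimers: HLH-2, the worm E protein, partners with tissue-specific factors such as HLH-8, the Twist homolog of the postembryonic mesoderm, while HLH-30, the TFEB homolog, governs autophagy and lysosomal genes. TBX-2 is a T-box factor that acts in the development of pharyngeal muscle, and T-box proteins bind a core written GGTGTGA.

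Peaks were taken from the authors' list on build ce11 that keeps entries by their irreproducible discovery rate (IDR), which rates how well ranked replicate lists match. That list held 1631 entries, and the ranked lists it came from, which include background by design, held 30000 entries for the pooled replicates, 28366 for replicate 1 and 30000 for replicate 2. Each entry has a signal value given by the authors' peak caller, which serves here to rank entries within 1 list. Read depth is unknown, because no read counts are given. The promoter window of a gene covered the 1000 bp before and the 200 bp after each of its annotated transcript starts.

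Promoter peaks were found at 3 members: ceh-38, hlh-11 and hlh-30. The sequences under these summits are shown because they carry the positive results, together with the strongest promoter entry that missed the threshold, that of ceh-39. Each is the 201 bp window around a summit on the strand of the gene, on build ce11, except that of ceh-38, of which only the 65 bases upstream of the annotated gene are given. Capitals mark matches on either strand to an E-box (CANNTG) or to GAGAGA, the latter searched only after these sequences had been read.
ceh-38, part upstream of the gene, chrII:6951461-6951525, plus strand: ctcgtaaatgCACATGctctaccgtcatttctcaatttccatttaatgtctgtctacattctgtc
hlh-11, chrIII:9619279-9619479, plus strand: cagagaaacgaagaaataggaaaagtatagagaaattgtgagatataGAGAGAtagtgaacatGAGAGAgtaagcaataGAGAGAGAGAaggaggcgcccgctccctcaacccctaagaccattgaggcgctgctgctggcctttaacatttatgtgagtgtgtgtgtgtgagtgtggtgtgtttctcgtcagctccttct
hlh-30, most upstream start, chrIV:4034981-4035181, minus strand: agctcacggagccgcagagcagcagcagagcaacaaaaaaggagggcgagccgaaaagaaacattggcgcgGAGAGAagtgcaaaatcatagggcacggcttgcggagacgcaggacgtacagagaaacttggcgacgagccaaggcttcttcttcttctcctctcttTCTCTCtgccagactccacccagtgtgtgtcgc
hlh-30, middle starts, chrIV:4028294-4028494, minus strand: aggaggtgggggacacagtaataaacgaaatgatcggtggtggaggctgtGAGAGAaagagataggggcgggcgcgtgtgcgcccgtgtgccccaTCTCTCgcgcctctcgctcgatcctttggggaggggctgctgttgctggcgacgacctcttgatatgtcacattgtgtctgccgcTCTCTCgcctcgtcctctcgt
hlh-30, short transcripts, chrIV:4019913-4020113, minus strand: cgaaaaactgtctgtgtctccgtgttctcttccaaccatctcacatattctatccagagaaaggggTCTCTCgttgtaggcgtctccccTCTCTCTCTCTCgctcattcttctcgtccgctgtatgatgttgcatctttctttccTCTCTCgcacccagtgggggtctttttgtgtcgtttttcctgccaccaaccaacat
ceh-39, just below the threshold, chrX:1856242-1856442, minus strand: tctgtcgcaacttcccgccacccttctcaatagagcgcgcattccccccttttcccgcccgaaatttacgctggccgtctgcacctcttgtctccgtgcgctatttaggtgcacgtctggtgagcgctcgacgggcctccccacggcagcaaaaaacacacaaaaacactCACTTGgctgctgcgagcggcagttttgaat

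None of the 5 promoter summit windows of members held the T-box core GGTGTGA or the homeodomain core TAATTA on either strand. Of all 1631 thresholded summit windows, 0.981% held GGTGTGA and 5.27% held TAATTA, so their absence was the common case. An E-box was present in 1 of the 5 windows, that of ceh-38, against 57.6% of all thresholded windows. The palindromic E-box CACGTG, which is 1 form of CANNTG, was in 0 of the 5 and in 7.66% of all. GAGAGA was present in 4 of the 5 windows, those of hlh-11 and hlh-30, against 41.6% of all thresholded windows. Of these 4 windows, 3 belong to 1 gene, and these matches describe letters and not bound sites. The GC content of the 3 hlh-30 windows was 55.7%, 60.2% and 49.3%, above the median of 45.8% over all thresholded windows. That of hlh-11 was 45.8% and that of ceh-38 was 44.8%.

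The 3 members with a promoter peak were 3.80% of the 79 (exact Clopper-Pearson 95% interval 0.790 to 10.7%, which covers the number of genes only), and 5.41% of all protein-coding genes had one. The share of members was thus near the background, and the interval includes it. By family, 1 of 55 ceh genes and 2 of 24 hlh genes had a promoter peak. The 3 members were the same in the strongest 1631 entries of replicate 1 and of replicate 2, each taken alone, where 5.24% and 5.13% of all coding genes had an entry. Both replicates contributed to the pool from which the peaks were chosen, so their presence in each is not independent evidence.

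The strongest of the member peaks lay at ceh-38, which encodes a ONECUT homeobox protein. ONECUT factors carry a CUT domain beside the homeodomain, and in the worm they act broadly across neurons. In the pooled list, the peak at chrII:6951434-6951662 ranked 231 with a signal value of 273. The entry of replicate 1 there had 177 at rank 156, and that of replicate 2 had 97.7 at rank 396. Among the 1081 coding genes with a promoter peak, ceh-38 came at position 182 by signal value. The summit lay in an exon of the longest transcripts, 35 bp downstream of the most upstream start at position 6951526. It was also 261 bp upstream of malt-1, which lies on the other side and whose promoter window it shares, so the peak cannot be given to 1 of the 2 genes. The only other pooled entry in the ceh-38 window had a signal value of 23.2 and ranked 18126.

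The peak of hlh-11 lay upstream of its gene and was the only thresholded summit in its promoter windows or introns. This gene encodes a homolog of the bHLH protein AP-4 and is known in the worm as a regulator of fat metabolism genes. In the pooled list, the peak at chrIII:9619262-9619472 had a signal value of 211 and ranked 392. It had 125 in replicate 1, at rank 336, and 92.5 in replicate 2, at rank 442. The summit was intergenic, 332 bp upstream of the most upstream start, and no other coding gene had it in its promoter window. The next coding gene in that direction lay 3240 bp from the start. Besides this peak, 7 weaker pooled entries lay in promoter windows or introns of hlh-11, with signal values from 26.2 to 50.005 and ranks from 4350 to 14725. None of these 7 passed the threshold.

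hlh-30 had 3 thresholded summits, each in the promoter window of a different set of transcript starts. The first, at chrIV:4034871-4035290, lay 130 bp upstream of the most upstream start and had a signal value of 112 at rank 1155. Replicate 1 gave it 64.1 and replicate 2 gave it 47.3. The second, at chrIV:4028184-4028603, lay 267 bp upstream of the start shared by transcripts W02C12.3b.1 and W02C12.3c.1 and had a signal value of 109 at rank 1206.

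Replicate 1 gave the second summit 60.6 and replicate 2 gave it 49.6. The third summit, at chrIV:4019803-4020222, lay 969 bp upstream of the nearest start of the short transcripts, close to the edge of the window. It had a signal value of 107 at rank 1253, with 67.6 in replicate 1 and 41.9 in replicate 2. The 3 values spanned a narrow range in the pooled list, and replicate 1 was higher than replicate 2 at each.

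The second and the third of these hlh-30 summits also lay in introns, which made hlh-30 the only member with a thresholded intron summit (1 of 79 members, 1.27%, against 1.62% of all coding genes). These summits counted for promoter and intron at once. The third lay 23 bp downstream of the start of W02C12.4, a noncoding RNA gene within the intron, and the second lay 583 bp upstream of F35F11.4, another noncoding RNA gene. Which start a summit belongs to cannot be told from these lists.

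**Figure D1:**
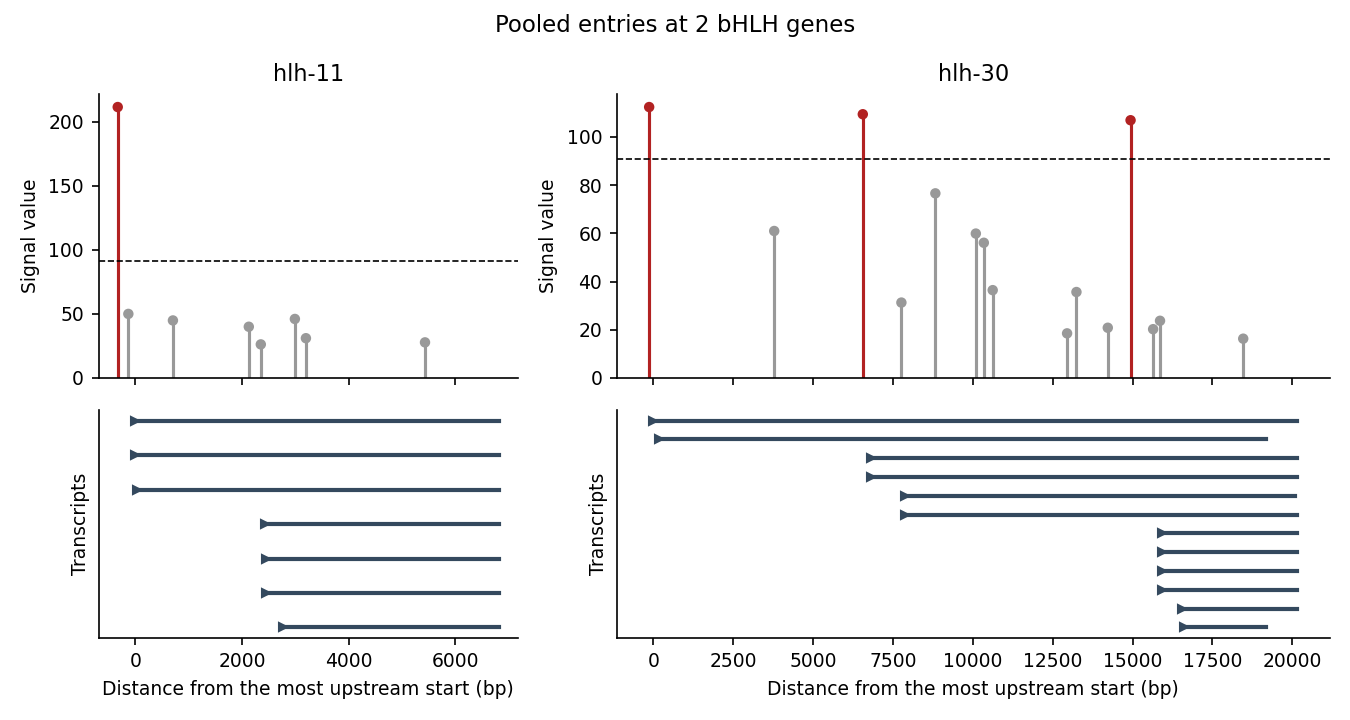
Pooled entries at hlh-11 (left) and hlh-30 (right): the upper panels give the signal value of each entry in a promoter window or intron against its distance in bp from the most upstream transcript start, with thresholded summits in red, other entries in grey and the lowest thresholded value as a dashed line. The lower panels draw each annotated transcript from its start (triangle); hlh-30 has 3 red summits upstream of 3 sets of starts and hlh-11 has 1.

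In all, 15 pooled entries lay in promoter windows or introns of hlh-30, 14 of them in introns. The 12 that missed the threshold had signal values from 16.3 to 76.6, the best of them at rank 2189. Of the 15 entries, 8 had a summit within 100 bp in both replicate lists. The map of entries at hlh-11 and hlh-30 shows these weaker entries between the peaks.

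Just under the threshold lay ceh-39, another ONECUT gene, known in the worm as an X-linked signal element in sex determination. The lowest thresholded entry had a signal value of 90.97 and the next entry in the pooled list also had 90.97. The promoter entry of ceh-39, at chrX:1856132-1856551, had 89.98 and ranked 1665. It ranked 2343 in replicate 1 with a signal value of 42.3 and 2017 in replicate 2 with 40.1. Its summit was intergenic, 170 bp upstream of the start, and 131 bp upstream of the noncoding RNA gene T26C11.10. The ONECUT genes ceh-21 and ceh-41 lie beside ceh-39 on the same strand of X, and neither had a pooled promoter entry.

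Between the threshold and rank 3262, which is 2 times the length of the thresholded list, there were 2 other members. ceh-10, a paired-like homeobox gene of the Vsx group that acts in AIY interneurons, had a promoter entry with a signal value of 72.6 at rank 2364, with 42.02 in replicate 1 and 23.8 in replicate 2. ceh-5, which encodes a homeodomain protein of the Vax group, had one of 64.0 at rank 2833. Their summits lay 65 bp and 262 bp upstream of the start, and both were in introns of another gene, polq-1 for ceh-10 and ocrl-1 for ceh-5. Replicate 2 gave the ceh-5 summit 41.7, and replicate 1 had no entry within 100 bp of it. Elsewhere in the ceh-5 window replicate 1 had an entry of 34.5 at rank 3329. Up to rank 3262 the list thus reached 6 of 79 members, 7.59%, against 9.24% of all coding genes.

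In the pooled list, 57 of the 79 members had no entry in their promoter window. An entry was present for 22 of 79, 27.8% (exact Clopper-Pearson interval 18.4 to 39.1%), against 36% of all coding genes. Homeobox members had one in 18 of 55 cases and bHLH members in 4 of 24. Up to rank 10000, 7 members had been reached, 8.86%, against 18.9% of all coding genes. Whether this gap is larger than the choice of genes would give was not tested. It concerns promoter windows only. A pooled intron entry was present for 21 of 79 members, 26.6%, against 23.8% of coding genes with an intron, also not tested.

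**Figure D2:**
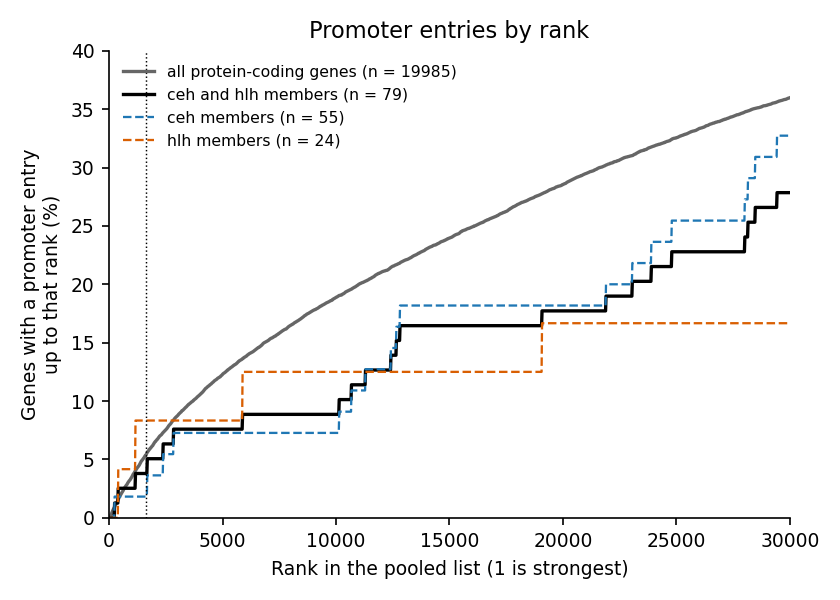
Share of genes (%) that had a promoter entry up to a given rank in the pooled list, for all 19985 protein-coding genes (grey), the 79 members (black), and the 55 ceh and 24 hlh members (dashed); the dotted line marks the 1631 thresholded entries. The black curve lies at 3.80% at that line and ends at 27.8%, while the grey curve ends at 36%.

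The other 16 members with an entry ranked beyond 3262, with signal values from 16.2 to 42.6. The pooled list runs down to 15.9 with a median of 25.96, so many of these lay in its weaker part. hlh-1, the MyoD homolog of body wall muscle, led them with a signal value of 42.6 at rank 5880, 108 bp upstream of a start. It had 21.1 in replicate 1 and 18.02 in replicate 2. Next came ceh-88, at 32.1 and rank 10127. In its window replicate 1 had an entry of 25.01 and replicate 2 had none.

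Of all coding genes, 36% had a pooled promoter entry, and the small classes below were not tested against this share. Among homeobox classes, CUT genes had an entry in 3 of 6 cases and ANTP or NK-like genes in 6 of 15. Paired-like genes had one in 1 of 7 cases, and the genes left outside the named classes in 5 of 20. ceh-32, a SIX-family gene of head development, had a signal value of 28.4 at rank 12817, while its relative ceh-33 had none in the pooled list. The POU gene ceh-6 had 16.9 at rank 28021, and the LIM homeobox gene ceh-14, which specifies sensory and interneuron types, had 16.2 at rank 29433. No pooled promoter entry was listed for ceh-36, an Otx-related gene of sensory neurons, for the PBC genes ceh-40 and ceh-60, or for ceh-51, which acts in the mesoderm.

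The bHLH members are fewer, and 20 of the 24 had no pooled promoter entry (16.7% had one, exact Clopper-Pearson interval 4.73 to 37.4%, against 32.7% of ceh members with an interval of 20.7 to 46.7%). These intervals overlap, and the families were not tested against each other. Of all coding genes, 36% had a pooled promoter entry, so a gene without one was the common case. hlh-2 and hlh-8 had no promoter entry in any of the 3 ranked lists. None of the 4 achaete-scute genes hlh-3, hlh-4, hlh-14 and hlh-19 had a pooled entry, and neither did any of the 5 HES or REF-1-like genes hlh-25 to hlh-29. hlh-34, a bHLH gene outside the named classes, had a signal value of 22.5 at rank 19074.

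**Figure D3:**
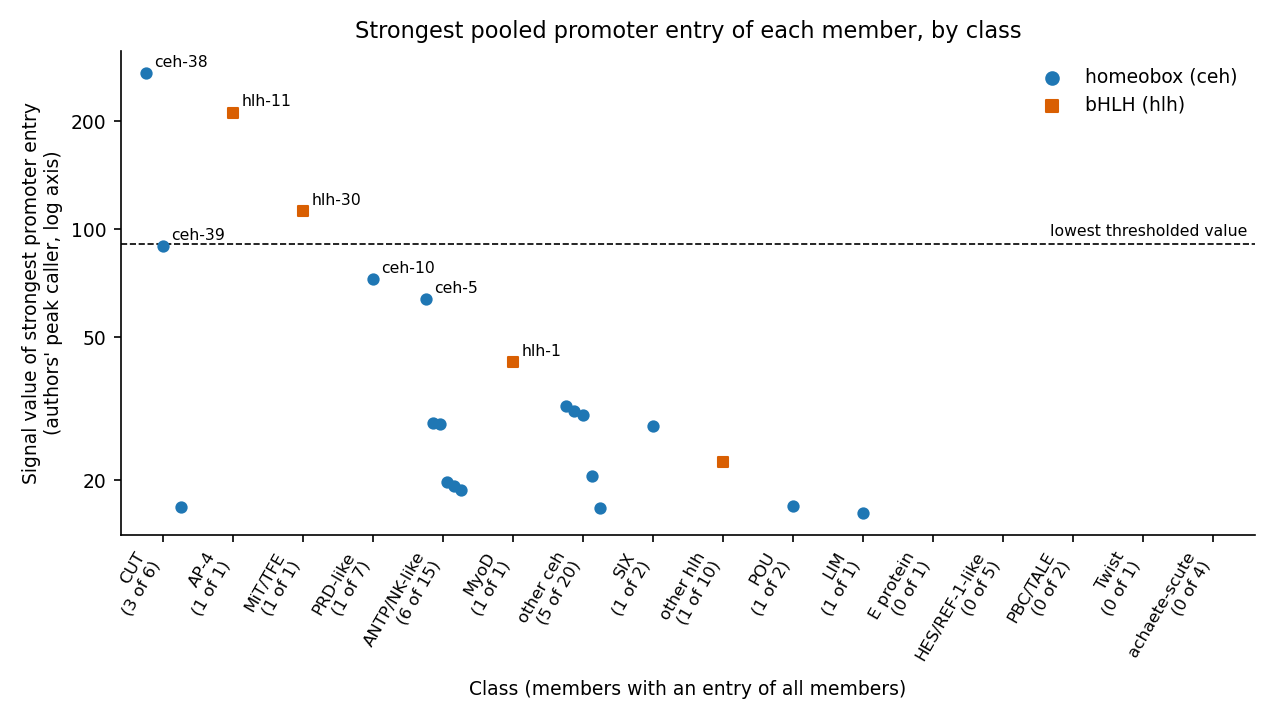
Signal value (log axis) of the strongest pooled promoter entry of each member that had one, grouped by class, with circles for ceh and squares for hlh genes; labels on the x axis give members with an entry of all members in the class. Only ceh-38, hlh-11 and hlh-30 lie above the dashed line of the lowest thresholded value, and ceh-39 lies just under it at 89.98.

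Promoter entries were also compared between the 2 replicate lists, which include background by design. An entry in the promoter window was present in both replicate lists for 13 members, in replicate 1 alone for 17, in replicate 2 alone for 9 and in neither for 40. Of the 13 members with entries in both, 7 had strongest summits within 100 bp of each other and 6 had them farther apart. These 13 included ceh-38, hlh-11 and hlh-30. The same counts over all coding genes are not given, so this split is not shown to be particular to members. In 11 members, 13.9%, an entry was present in the pooled and both replicate lists, against 24.8% of all coding genes. None of the 3 lists had an entry for 38 members, 48.1%, against 51.8% of all coding genes. The difference in these shares was not tested. Over all coding genes, 36.1% had a promoter entry in replicate 1 and 37% in replicate 2, against 30 and 22 of the 79 members.

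Repeated sequence can keep reads from being placed, and it was measured in the window of each gene's outermost start as the share of 31-base words that occur more than once in the genome. The median was 0% for members and for all coding genes. Above 50% were 2 of 79 members, 2.53%, against 3.30% of all coding genes. These were hlh-28 with 74.3% and hlh-29 with 73.4%, which are near neighbours in opposite orientation on X. The share was 41.3% in ceh-84, 29.0% in hlh-25 and 28.8% in hlh-27, and at most 24.9% in any other member. These 5 had no pooled promoter entry, which was the common case: 57 of 79 members had none, and 36% of all coding genes had one. The part of repeats in this was not tested.

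The X chromosome held 23 of 79 members, 29.1%, against 13.7% of all coding genes. None of these 23 had a promoter peak (exact Clopper-Pearson 95% interval 0 to 14.8%), while 6.41% of all coding genes on X had one. Of the 56 autosomal members, 3 had one, against 5.2% of autosomal coding genes. A pooled promoter entry was present for 5 of the 23 on X, all of them ceh genes, against 39.5% of coding genes there.

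Within 5000 bp on either side, 12 of 79 members had a thresholded summit, 15.2% (exact Clopper-Pearson interval 8.10 to 25.03%), against 17.7% of all coding genes. These were 19 distinct summits, of which 5 lay in member promoter windows and 14 did not. Of the 14, 5 lay in the promoter window of another coding gene and 5 lay within 1000 bp of the start of a noncoding gene, and a summit can count in both. Among the 19 summits, 16 were in the top 1631 of both replicates. Signal values were higher in replicate 1 at 15 of the 19 and higher in replicate 2 at 4, without normalization between the lists.

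**Figure D4:**
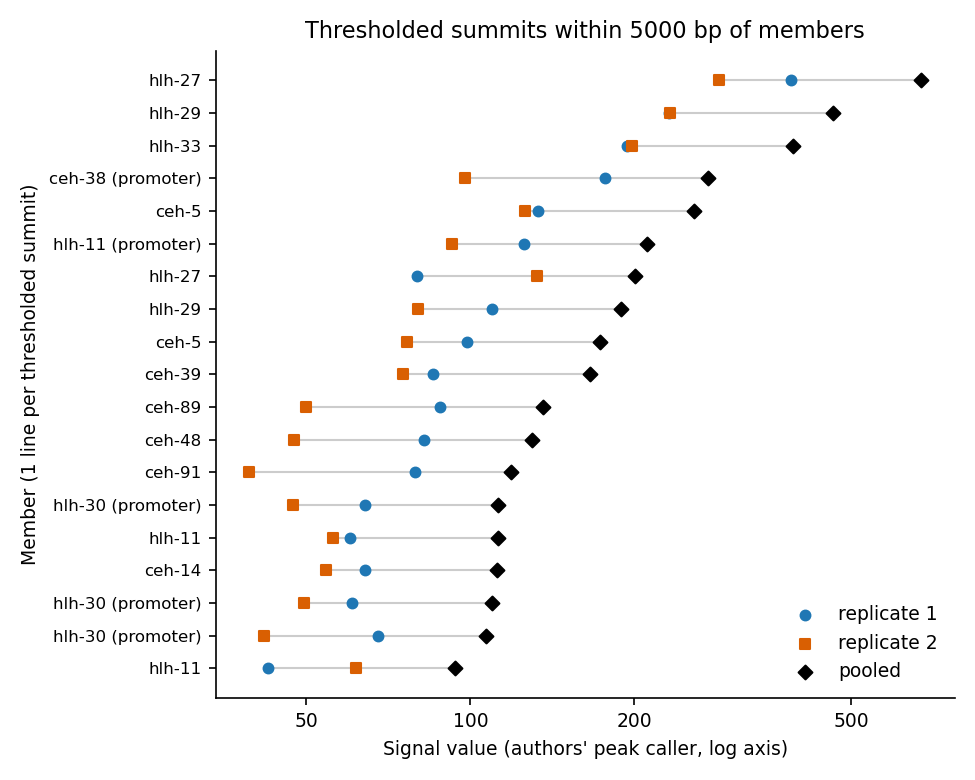
Signal values (log axis) of the 19 thresholded summits within 5000 bp of a member, 1 line per summit, in the pooled list (diamonds), replicate 1 (circles) and replicate 2 (squares). Replicate 1 is to the right of replicate 2 at 15 summits, and the strongest, near hlh-27, reaches 673 in the pooled list.

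The strongest of the nearby summits was 3496 bp upstream of hlh-27 at chrII:5543376-5544213, with a signal value of 673 at rank 48. Replicate 1 gave it 389 and replicate 2 gave it 286. It lay 11 bp upstream of the noncoding RNA gene C17C3.23, and a second summit of the same interval had 201.

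A pair of summits on X lay nearest to hlh-29, downstream of it. The one at chrX:17544374-17544677 had a signal value of 463 at rank 79, with 232 in replicate 1 and 233 in replicate 2, and was 2960 bp from the gene's end. The other, at chrX:17545519-17545938, had 189 and was 1763 bp from it. Both were intergenic. The summit next to hlh-33, at chrIII:1859580-1859880 with a signal value of 391, lay 141 bp past the end of that gene and 145 bp upstream of ddp-1, a homolog of the mitochondrial chaperone TIMM8.

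Upstream of ceh-39, a summit with a signal value of 166 at rank 630 lay 2622 bp from its start and 25 bp upstream of a tRNA gene. Upstream of ceh-5, a summit of 173 at rank 584 lay 1757 bp away, in coding sequence of eat-16 and in an intron of ocrl-1. A further one of 258 lay 418 bp upstream of eat-16 and over the noncoding genes C16C2.7 and C16C2.8. The summit upstream of ceh-48, a ONECUT gene with broad neuronal expression, had 129.8, was 2174 bp from its start and lay 59 bp upstream of the noncoding gene C17H12.31. The one upstream of ceh-14, with 112, was 3450 bp away in intergenic sequence near dpy-7, a cuticle collagen gene.

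The T-box core was found in promoters of members that had no peak. Promoters of 250 bases before to 50 after each gene's outermost start held GGTGTGA on either strand in 9 of 79 members, 11.4%, against 2.3% of all coding genes. This difference was not tested. The 9 were ceh-7, ceh-16, ceh-33, ceh-37, ceh-43, ceh-54, ceh-60, hlh-4 and hlh-16, and the site was on the gene's own strand in 5 of them. Because T-box proteins bind this core, 8 of the sites are shown with 10 bases on each side, on the strand of the gene. Whether TBX-2 binds these sites was not tested. The core is in capitals (TCACACC where it is on the other strand), and the site of hlh-16 is not shown.
ceh-16, chrIII:8622602-8622628, plus strand: cccgtaattaGGTGTGAagaaggcggg
ceh-33, chrV:5324652-5324678, minus strand: aaacattgtgTCACACCgagcatcgcc
ceh-37, chrX:14208120-14208146, minus strand: gacggtggtgGGTGTGAtaatgattta
ceh-43, chrIII:4450066-4450092, minus strand: cctttcaaatGGTGTGAgaattttaaa
ceh-54, chrX:6194202-6194228, minus strand: aggtacgttcTCACACCtttatcaata
ceh-60, chrX:6530088-6530114, minus strand: accgagtgcaTCACACCgatctttgag
ceh-7, chrII:8703901-8703927, minus strand: atacacaaaaGGTGTGAttttataatg
hlh-4, chrIII:9739240-9739266, minus strand: attgaatttaTCACACCtacttttgct

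None of these 9 members had a promoter peak, and 7 had no pooled promoter entry. The other 2 were ceh-43, the distal-less homolog, with a signal value of 28.6 at rank 12648, and ceh-7, with 19.3 at rank 23887. In both windows replicate 1 had an entry and replicate 2 had none. The pooled ceh-43 entry, at chrIII:4450198-4450617, did not reach its core. That of ceh-7, at chrII:8703891-8704310, spanned its core. The ceh-7 summit at 8704101 lay outside the core and also in the promoter window of prx-5. Of all 459 coding genes with the core in this window, 19 had a promoter peak, 4.14%, which is near the 5.41% of all coding genes. A pooled promoter entry was present for 143 of the 459, 31.15%, and absent for 316. Its absence in 7 of the 9 members was thus the common case. E-boxes were in the same window of 58 members, 73.4%, against 69.4% of all coding genes, and TAATTA in 11, 13.9%, against 15.5%. GAGAGA was in 24 members, 30.4%, against 21.8%. The palindromic E-box CACGTG was in 0 of the 79, against 5.81%.

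Chosen lists of homeobox and bHLH genes that have other names, not meant to be complete, were counted beside the members. Of 36 listed homeobox genes without a ceh symbol, among them unc-86, lin-11 and Hox genes, 0 had a promoter peak, against 5.41% of all coding genes. Among these 36, dve-1 came closest with a signal value of 82.6 at rank 1939. Whether 0 of 36 differs from that share was not tested. A pooled promoter entry was present for 19 of the 36, 52.8%, and for 7 of 16 bHLH genes without an hlh symbol, 43.8%, against 36% of all coding genes. Of these 16 bHLH genes, 2 had a promoter peak, 12.5%, against 5.41% of all coding genes, which was not tested either. They were mdl-1, a Mad-like partner of the Max network, with 138, and aha-1, a homolog of the aryl hydrocarbon receptor partner ARNT, with 108. Replicate 1 gave mdl-1 57.0 and replicate 2 gave it 78.7, while aha-1 had 65.0 and 39.9.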

How the data were processed

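Peak lists of anti-GFP ChIP-seq from 2 biological replicates of whole worms were analysed as deposited. The authors ranked peaks and background per replicate and for a pool of both, and kept 1 list by IDR, per the deposited listing. Which aligner and peak caller they used is not given in the sources used here. Column 7 of the deposited narrowPeak lists holds the signal value of the authors' peak caller, and it ranked entries inside each list only. The lists on build ce10 were not used. On ce11 the 1631 thresholded entries were the strongest of the pooled list, and 0 entries of any list ran past a chromosome end of WBcel235.

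Gene models came from Ensembl release 115 and sequence from the RefSeq copy of WBcel235. A gene was called where a summit lay in its promoter window, in an intron (inside the gene and in none of its exons), or within 5000 bp. A replicate entry was matched to a summit within 100 bp. Sites were searched on both strands. Window functions were tested on simulated summits. Counts were set beside all protein-coding genes, with exact Clopper-Pearson 95% intervals that cover counting error only. With 1 group and members chosen by name, no test was made. Members, classes and lists were chosen with earlier results of these data known.

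Named genes were the members with a thresholded promoter or intron summit, those ranked within 2 times the thresholded length, the best of each class, and hlh-1, hlh-2, hlh-8, ceh-14, ceh-32, ceh-33, ceh-36, ceh-51 and ceh-60. From the lists of other names up to 6 genes with a promoter peak were taken. Genes named beside a nearby summit, for a site or for repeats, and dve-1, were chosen after their values were seen. Calculations used Python 3.11.15 with pandas 2.3.3, numpy 2.4.6 and scipy 1.17.1. Alternatives changed the window, the threshold, the replicate and the assignment of summits.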

Additional observations from a re-analysis of the deposited data

How the results depend on the processing

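The 3 members with a promoter peak were ceh-38, hlh-11 and hlh-30 with a window from 500 bp upstream (4.12% of all coding genes). They were the same 3 without replicate 1 (5.13%) and without replicate 2 (5.24%). Here and below, leaving out a replicate means using the list of the other replicate alone. No peaks were called again, so this repeats the count in the top entries of each replicate. Among the strongest 815 thresholded entries it was 2, without hlh-30 (2.97% of all coding genes), and with a window from 2000 bp it was 4, with ceh-5 (7.29%). Among genes with 1000 bp free upstream it was 2 of 50, against 4.33% of such coding genes. It was 6 with the strongest 3262 pooled entries (9.24%) and also 6 when each summit went to its nearest coding start, which added ceh-5, ceh-48 and hlh-29, and where 6.78% of all coding genes were called. The intron count of 1 was 1 without replicate 1 (1.61%), 1 without replicate 2 (1.63%) and 0 among the strongest 815 (0.766%). The count of members within 5000 bp, 12, was 6 with 2000 bp (11%) and 7 among the strongest 815 (9.69%). It was 11 to 12 with a replicate left out, where the share of all coding genes is not given. Members with a ranked promoter entry, 22, numbered 20 with a window from 500 bp (28.3%) and 31 with one from 2000 bp (44.6%). They numbered 22 without replicate 1 (37%) and 30 without replicate 2 (36.1%). Members in the top of both replicates numbered 3, and 2 at a depth of 815 and 4 at a depth of 3262. For these 3 counts the share of all coding genes is not given, so they are not a result about members. With a window from 1000 bases before to 200 after the start, added after the data were seen, 17 of 79 members held the T-box core, 21.5%, against 8.29% of all coding genes. Percentages in brackets are shares of all coding genes. The cause of these changes was not tested. No paired analysis was possible because there is 1 group. Depth is unknown, so a gene without an entry is not shown to be unbound.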
